A study of Mus musculus with 70 samples.

Results

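Elastic fibre genes were followed in the lungs of female B6C3F1 mice exposed to 13 chemicals for 13 weeks. The set named 9 genes, Eln, Fbln5, Fbn1, Lox, Loxl1, Ltbp4, Mfap4, Emilin1 and Fbln1, and 8 of them had a probe set with that single symbol in the platform annotation, of 18193 genes so represented. Fbn1 had none and is not analysed here. Each gene was read from its brightest probe set, the one with the highest mean over all 70 arrays. All 8 passed the filter on dim genes, which kept 12735 genes with a mean above 4.98 on the log2 scale.

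Elastic fibres give the lung its recoil. Tropoelastin, the product of Eln, is laid down on microfibrils of fibrillin and cross-linked by the lysyl oxidases Lox and Loxl1, while fibulin 5 (Fbln5), the latent TGF-beta binding protein Ltbp4, the microfibril-associated glycoprotein Mfap4, emilin 1 (Emilin1) and fibulin 1 (Fbln1) bind the growing fibre or its microfibrils. Most lung elastin is made while alveoli form, by myofibroblasts, smooth muscle cells and other cells, and it turns over slowly in the adult. Mice that lack Fbln5, Loxl1 or Ltbp4 develop enlarged airspaces.

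RNA of the right lung lobe was hybridised to Affymetrix mouse expression arrays, 1 array per animal, in mice 18 weeks old at the end. The labels class 7 chemicals as positive for lung tumours. Among them 1,5-naphthalenediamine (3 mice, at 2000 ppm) and 2,2-bis(bromomethyl)-1,3-propanediol (4 mice, at 1250 ppm) were given in feed. N-methylolacrylamide (50 mg/kg, 4 mice) was given by gavage in water, and 1,2-dibromoethane (62 mg/kg, 4 mice), coumarin (200 mg/kg, 4 mice), benzene (100 mg/kg, 4 mice) and 2,3-benzofuran (240 mg/kg, 3 mice) by gavage in corn oil. The 6 negative chemicals were N-(1-naphthyl)ethylenediamine dihydrochloride (2000 ppm, 3 mice), pentachloronitrobenzene (8187 ppm, 3 mice), 4-nitroanthranilic acid (10000 ppm, 4 mice), diazinon (200 ppm, 4 mice) and malathion (16000 ppm, 4 mice), all in feed, and 2-chloromethylpyridine hydrochloride (250 mg/kg, 4 mice) in water. The animal identifiers start with 1 or 2, a mark that the labels do not explain, called set 1 and set 2 here. Set 1 held 1,5-naphthalenediamine, 2,3-benzofuran, N-(1-naphthyl)ethylenediamine and pentachloronitrobenzene with 3 corn oil and 3 feed controls, and set 2 held the other chemicals with 8 corn oil, 4 water and 4 feed controls. Feed was given on 7 days a week and gavage on 5 days a week at 5 ml/kg, to controls too. The labels also give the amount handed to the core facility, called the RNA amount here. It is a mass, the same for all mice, in set 1 and a volume in set 2. In set 2 all gavage mice had the larger volume and all 2,2-bis(bromomethyl)-1,3-propanediol mice the smaller. The other feed groups of set 2, controls too, were mixed.

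Array medians lay between 5.41 and 5.52 on the log2 scale, and 0 of the array pairs were identical. Markers of alveolar cells were high on all arrays, with Sftpc of type II cells between 14.23 and 14.45 and Ager of type I cells between 13.69 and 14.31. RNA integrity was read as the mean 3' minus 5' signal for Actb and Gapdh, in log2 units. It was above 0.5 on 2 arrays, animal 2-56 of the 1,2-dibromoethane group (0.989) and animal 1-10 of the 2,3-benzofuran group (0.523). The number of arrays limits the precision, and in whole lung RNA fewer cells of a type and less RNA per cell cannot be told apart.

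On assembly GRCm38.p6 the genes lie apart. Eln (probe set 1420855_at) is at chr5:134702595-134747368 and Emilin1 (1416414_at) at chr5:30913387-30921279. Fbln5 (1416164_at) is at chr12:101746565-101819119 and Loxl1 (1451978_at) at chr9:58287723-58313212. Ltbp4 (1436665_a_at) is at chr7:27305140-27339720, Mfap4 (1424010_at) at chr11:61485431-61488708 and Fbln1 (1451119_a_at) at chr15:85205949-85286294.

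The RefSeq table of gene starts gave windows for 4 of the 8 genes by symbol, with Lox left out of that search. For Fbln5 and Fbln1 it holds a 250-base window that ends at the edge of the annotated gene. These windows are shown because Fbln5 was called with 1,2-dibromoethane and Fbln1 between vehicles. They run from chr12:101819120-101819369 (minus strand) and chr15:85205699-85205948 (plus strand), 5′ to 3′. Capitals mark matches on either strand to the Sp1 box GGGCGG in Fbln5 and to the SMAD element CAGAC in Fbln1.
Fbln5: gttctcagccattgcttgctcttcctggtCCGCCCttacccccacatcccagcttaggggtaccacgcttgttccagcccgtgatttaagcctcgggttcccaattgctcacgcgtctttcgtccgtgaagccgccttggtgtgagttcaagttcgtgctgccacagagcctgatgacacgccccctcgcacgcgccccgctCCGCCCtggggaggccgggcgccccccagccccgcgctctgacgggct
Fbln1: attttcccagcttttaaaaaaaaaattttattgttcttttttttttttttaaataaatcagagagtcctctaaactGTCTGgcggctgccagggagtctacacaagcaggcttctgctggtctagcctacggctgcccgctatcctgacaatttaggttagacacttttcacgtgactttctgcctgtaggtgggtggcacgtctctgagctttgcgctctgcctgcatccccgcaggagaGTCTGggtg
The Fbln5 window had 65.2% G and C with 21 CpG steps, and the Fbln1 window 46.4% with 7, against a median of 52.4% over 32851 windows. Fbln5 held 2 Sp1 boxes and Fbln1 held 2 SMAD elements, and none of the marked matches overlap. Over all windows of this length 32.7% held an Sp1 box and 42.2% a SMAD element. No match to the AP-1 site TGANTCA (6.75% of windows), the antioxidant response element TGACNNNGC (10.2%) or the TATA box TATAAA (12.4%) lay in either window, which says only that these letters are not there.

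Of 104 pairs of gene and chemical, 6 were called, and all 6 were falls (limma, adjusted p under 0.05 over all genes of a comparison). Eln fell with 1,2-dibromoethane, coumarin and N-methylolacrylamide, Loxl1 with 1,2-dibromoethane and coumarin, and Fbln5 with 1,2-dibromoethane. No call was made for Lox, Ltbp4, Mfap4, Emilin1 or Fbln1 with any chemical.

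**Figure D1:**
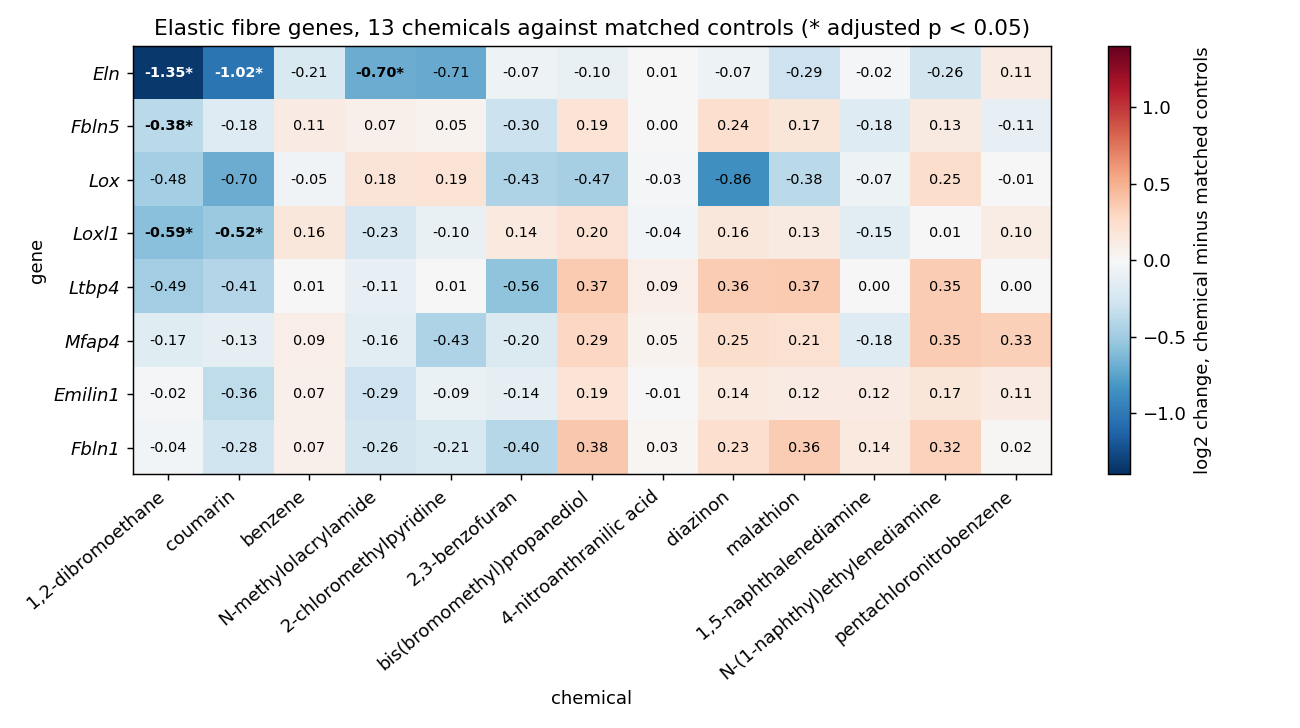
Log2 change of each elastic fibre gene (down the page) for each of 13 chemicals (across), treated mean minus the mean of controls of the same set and vehicle, with calls starred. The 6 starred cells lie in Eln, Fbln5 and Loxl1, and the deepest is Eln with 1,2-dibromoethane at -1.35.

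Eln, the elastin gene, showed the deepest change of the 8 genes. With 1,2-dibromoethane, a halogenated solvent and former fumigant, Eln measured 8.69, 8.40, 9.80 and 8.77 in treated mice, against 9.83 to 10.80 (median 10.27) in the 8 corn oil controls of set 2. All treated mice lay below all controls, although animal 2-56, the one with the high 3' minus 5' value, came close to the lowest control. The means were 8.92 ± 0.61 in treated mice (SD, n = 4) and 10.26 ± 0.39 in controls (SD, n = 8), a change of -1.35 ± 0.22 (SE of the fit) with a 95% interval of -1.80 to -0.90 and an adjusted p of 0.000135. Linear signal was 0.39 times that of controls. Without animal 2-56 the change was -1.64, and with each of the 12 animals left out in turn the adjusted p was at most 0.0045.

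Coumarin, a plant benzopyrone, gave Eln 8.95, 8.76, 9.49 and 9.79 in treated mice, again against 9.83 to 10.80 in the same corn oil controls. The groups did not overlap, and the treated mice split into a lower and a higher pair. The mean was 9.25 ± 0.48 in treated mice (SD, n = 4), a change of -1.02 ± 0.22 with a 95% interval of -1.47 to -0.57 (adjusted p = 0.00247, and at most 0.033 with any animal left out). With only the arrays of the 2 groups in the fit, the adjusted p was 0.0756 for 1,2-dibromoethane and 0.0551 for coumarin.

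N-methylolacrylamide, an acrylamide monomer, gave Eln 9.80, 10.00, 8.86 and 9.49 in treated mice, against 10.33, 10.64, 10.04 and 9.93 in water controls. The highest treated mouse lay above the lowest control. The change was -0.70 ± 0.26 (adjusted p = 0.0449), and leaving out treated animal 2-106 gave -0.47 (adjusted p = 0.226). The call was also lost without treated animal 2-109 (adjusted p = 0.0755) or control 2-121 (0.0978), 2-124 (0.188) or 2-127 (0.0519).

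2-Chloromethylpyridine, tested against the same water controls, gave Eln 10.21, 9.19, 9.54 and 9.16. This was a change of -0.71 ± 0.26, as large as that of N-methylolacrylamide, but no gene of 12735 was called for this chemical and its adjusted p was 0.316. For the other 9 chemicals the Eln change lay between -0.29 (malathion) and 0.11 (pentachloronitrobenzene).

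**Figure D2:**
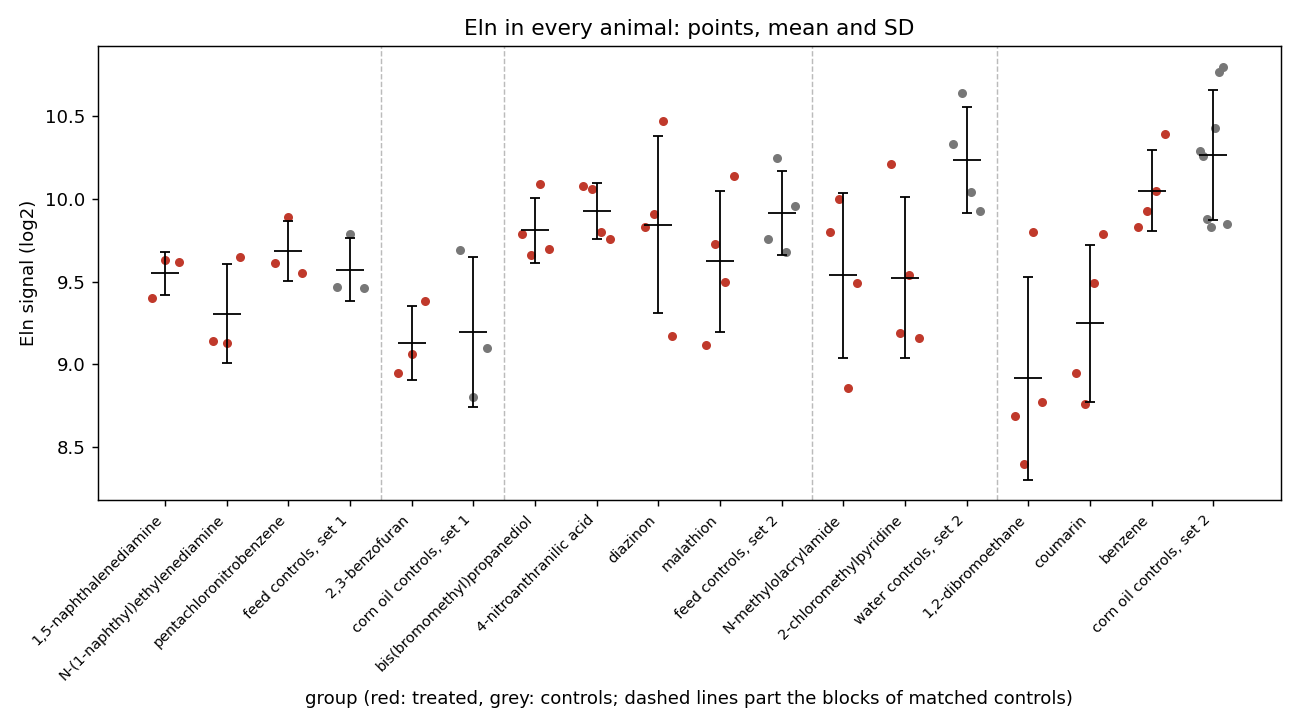
Eln signal (log2) in each of the 70 animals, with the mean and SD of each group, treated groups in red to the left of their grey controls. All mice given 1,2-dibromoethane or coumarin lie below the lowest corn oil control of set 2 (9.83), while the corn oil controls of set 1 lie between 8.80 and 9.69.

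Among the 18 groups the Eln mean ran between 8.92 with 1,2-dibromoethane and 10.26 in corn oil controls of set 2. Neighbours in that order differed by at most 0.22, less than the spread within a group of 0.38. Eln varied more between animals of a group than 93.5% of the genes tested, whose median spread was 0.19.

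The second Eln probe set, 1420854_at, fell by 0.94 ± 0.19 with 1,2-dibromoethane (adjusted p = 0.00168). It measured -0.60 ± 0.19 with coumarin (0.0527) and -0.47 ± 0.21 with N-methylolacrylamide (0.12), so only the first of the 3 calls was made by this probe set.

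Loxl1 encodes a lysyl oxidase that cross-links elastin. In mice given 1,2-dibromoethane it measured 9.67, 8.95, 10.07 and 9.65, against 9.71 to 10.75 (median 10.21) in corn oil controls. All but animal 2-56 lay below the lowest control. The change was -0.59 ± 0.15 (adjusted p = 0.0149), which became -0.37 (0.168) without animal 2-54 and -0.75 without animal 2-56. Coumarin gave 9.64, 9.57, 9.69 and 9.70, just below all 8 controls, for a change of -0.52 ± 0.15 (adjusted p = 0.027). Its call was lost without control 2-93 or 2-97 or without treated animal 2-72, 2-75 or 2-80, with changes between -0.44 and -0.54 and adjusted p-values between 0.0502 and 0.0828. The second Loxl1 probe set was not called for either chemical (-0.20 with 1,2-dibromoethane and -0.40 with coumarin), nor was Loxl1 with only the groups compared in the fit (adjusted p = 0.336 with 1,2-dibromoethane and 0.212 with coumarin).

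Lox (probe set 1416121_at, chr18:52516060-52529867 on GRCm38.p6), the other lysyl oxidase measured, was the most variable member, with a within-group SD of 0.56 that exceeded that of 98.8% of genes. With 1,2-dibromoethane it measured 7.79, 8.19, 9.16 and 7.75, against 7.52 to 9.35 (median 8.98) in controls, and the groups overlapped almost fully. The changes were -0.48 ± 0.33 with 1,2-dibromoethane, -0.70 ± 0.33 with coumarin (adjusted p = 0.25) and -0.86 ± 0.38 with diazinon (adjusted p = 0.848), and none was called.

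Fbln5, which tethers elastin to microfibrils and cells, measured 10.98, 10.27, 10.71 and 10.73 in mice given 1,2-dibromoethane, against 10.84 to 11.25 (median 11.06) in controls. Only animal 2-52 lay within the control range. The change was -0.38 ± 0.10 (adjusted p = 0.0184), and without animal 2-54 it was -0.24 (adjusted p = 0.184). The call was also lost with the second probe set (-0.20, adjusted p = 0.412) and with only the groups compared in the fit (adjusted p = 0.284). That second probe set is dim, with a mean of 4.60 against 10.77 for the first. This is below the filter value of 4.98, so it says little about the call. Coumarin gave -0.18 ± 0.10, which was not called.

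Ltbp4, which brings fibulin 5 to microfibrils, measured 9.92, 10.12, 9.48 and 10.14 in mice given 1,2-dibromoethane, against 10.15 to 10.76 (median 10.39) in controls. The groups did not overlap, yet the change of -0.49 ± 0.18 was not called (adjusted p = 0.0988), and coumarin gave -0.41 ± 0.18 (0.206). The lowest value with 1,2-dibromoethane, 9.48, was that of animal 2-56, which has a high 3' minus 5' value. The other mice of that group, at 9.92 to 10.14, lay closer to the lowest control, at 10.15. With 2,3-benzofuran Ltbp4 measured 8.48, 9.96 and 10.30, against 10.03, 10.09 and 10.28 in the corn oil controls of set 1, and the low value was that of animal 1-10, with the high 3' minus 5' value. That change, -0.56 ± 0.24, was not called (adjusted p = 0.18), and without animal 1-8 it was -0.92 (adjusted p = 0.012). Other pairs of gene and chemical separated too. Fbln5 lay above all its controls with 2,2-bis(bromomethyl)-1,3-propanediol, diazinon and N-(1-naphthyl)ethylenediamine, and below them with 1,5-naphthalenediamine. Mfap4 lay above all its controls with 2,2-bis(bromomethyl)-1,3-propanediol, diazinon and pentachloronitrobenzene, and Lox below them with 2,3-benzofuran. None of these pairs was called, and the share of all genes so separated was not tested.

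**Figure D3:**
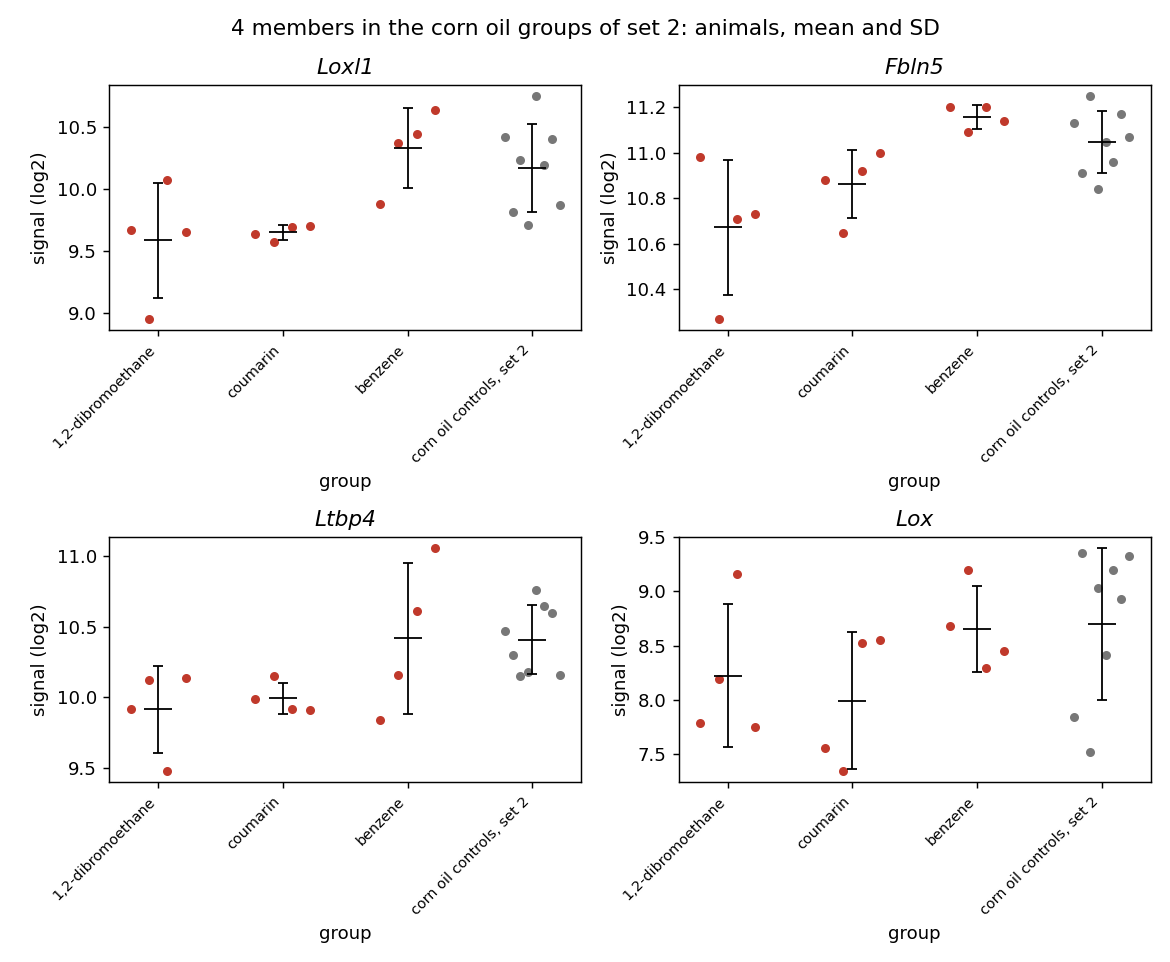
Signal (log2) of Loxl1, Fbln5, Ltbp4 and Lox in each mouse of the set 2 corn oil groups, with mean and SD, treated groups to the left of controls. Loxl1 is below all controls in coumarin mice, Ltbp4 is below all controls in 1,2-dibromoethane mice, and Lox overlaps in all groups.

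Mfap4, Emilin1 and Fbln1, which bind microfibrils or elastin, were called with no chemical. The lowest changes were -0.43 ± 0.16 for Mfap4 with 2-chloromethylpyridine (adjusted p = 0.316), -0.36 ± 0.12 for Emilin1 with coumarin (0.0641) and -0.40 ± 0.25 for Fbln1 with 2,3-benzofuran (0.409). Emilin1 with coumarin passed without control animal 2-99 (-0.41, adjusted p = 0.0236).

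The changes of the 8 genes had a median of -0.43 with 1,2-dibromoethane and -0.39 with coumarin, and all 8 were below 0 in both, against medians of -0.02 and -0.01 over all genes. These comparisons share their 8 controls. With 1,2-dibromoethane 3 of the 8 genes were called, where 4.59% of all genes were called and 2.5% called lower, and with coumarin 2 of 8, where 4.68% were called and 1.42% called lower. The members were chosen with earlier results of these data known, so these counts do not test for an excess of elastic fibre genes. With N-methylolacrylamide 1 of 8 was called, where 21.8% of all genes were called and 9.07% called lower, so the member count lies near the background there. No member was called for the remaining chemicals, where the shares of all genes called were 5.03% for 2,3-benzofuran, 2.66% for malathion, 1.2% for 1,5-naphthalenediamine and 0.0942% for benzene. They were 0.00785% each for N-(1-naphthyl)ethylenediamine and pentachloronitrobenzene. They were 0% by limma for 2,2-bis(bromomethyl)-1,3-propanediol, 4-nitroanthranilic acid, 2-chloromethylpyridine and diazinon, where 1485, 219, 1641 and 650 genes had an unadjusted p under 0.05. With 2,3-benzofuran 7 of the 8 changes were below 0 (median -0.25, against 0.07 over all genes), and with N-(1-naphthyl)ethylenediamine 1 of 8 was (median 0.21, against -0.03).

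Further genes of the fibre were not called beside Eln with 1,2-dibromoethane and coumarin. Of 16 further elastic fibre and microfibril genes above the filter (20 on the list), 0 were called with 1,2-dibromoethane (median -0.14) or coumarin (median -0.20). With N-methylolacrylamide 1 rose, Atp7a, the copper transporter that loads lysyl oxidases, by 0.57 ± 0.16. Another 4 fell, where 21.8% of all genes were called and 9.07% called lower (median of the list -0.09, against -0.10 over all genes). Among them Adamtsl2 fell by 0.76 ± 0.20, Ltbp2 fell by 0.66 ± 0.20 and Mfap2, a microfibril glycoprotein, fell by 0.44 ± 0.13. In water controls against feed controls of set 2, Atp7a was -0.54 ± 0.16, Ltbp2 0.63 ± 0.20 and Mfap2 0.52 ± 0.13. Adamtsl2 was not called there, and the part of the water controls was not tested. Of 17 elastases and protease inhibitors 1 was called with 1,2-dibromoethane and with coumarin, the cathepsin inhibitor Cst3, which fell by 0.20 ± 0.05 in both.

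Of 17 TGF-beta genes, 3 fell with 1,2-dibromoethane and 2 with coumarin, and 0 rose. Tgfb1, a ligand that drives elastin and collagen synthesis, fell by 0.60 ± 0.14 with 1,2-dibromoethane (adjusted p = 0.00759) and by 0.61 ± 0.14 with coumarin (0.00452). Smad7, an inhibitor and target of the pathway, fell by 0.49 ± 0.11 with 1,2-dibromoethane and by 0.47 ± 0.11 with coumarin. Smad6, another inhibitor, fell with 1,2-dibromoethane by 0.58 ± 0.16. Both comparisons share the 8 corn oil controls of set 2. Against feed controls of set 2 these were higher in Tgfb1 (0.82 ± 0.14) and Smad7 (0.43 ± 0.11), and Smad6 was not called. The part of the shared controls in these falls was not tested. With N-methylolacrylamide 4 of the 17 rose and 1 fell, where 1622 of all 12735 genes were called higher and 1155 lower. Postn, a matrix protein induced by TGF-beta, rose by 1.80 ± 0.37 (adjusted p = 0.00231), the receptor Tgfbr1 by 0.58 ± 0.18 and Skil, a repressor of SMAD proteins, by 0.54 ± 0.19, while the signal transducer Smad3 fell by 0.30 ± 0.10. Water controls against feed controls of set 2 went the other way for Postn, Tgfbr1 and Skil. There Postn was -1.56 ± 0.37, Tgfbr1 -0.89 ± 0.18 and Skil -0.78 ± 0.19. The remaining TGF-beta genes called with N-methylolacrylamide were not called there. The part of the water controls in these changes was not tested. Of 18 collagens, Col4a2 fell with 1,2-dibromoethane (-0.38 ± 0.11), and Col4a1 (-0.43 ± 0.11) and Col15a1 (-0.49 ± 0.14), both of basement membranes, fell with coumarin. In corn oil against feed controls of set 2 Col4a2 was 0.38 ± 0.11, and Col4a1 and Col15a1 were not called. With 2,3-benzofuran 7 of 18 collagens fell while no elastic fibre member was called, but without the 2 arrays of high 3' minus 5' value 0 collagens and 48 genes in all were called.

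Cell type markers were read beside these falls. Of 12 fibroblast markers 2 fell with 1,2-dibromoethane (Npnt, -0.43 ± 0.10, and Tcf21, -0.35 ± 0.10; median 0.00) and 1 with coumarin (Npnt, -0.36 ± 0.10; median 0.03). Their summed linear signal was 20430 to 24964 with 1,2-dibromoethane and 23340 to 26654 with coumarin, against 24427 to 27492 in controls. Of 10 smooth muscle markers 0 were called with either, with medians of -0.19 with 1,2-dibromoethane and -0.36 with coumarin. Their sum ran between 6527 and 7896 with 1,2-dibromoethane and between 6320 and 6487 with coumarin, against 6759 to 10180 in controls. Of 10 endothelial markers 3 fell with coumarin (Cdh5, Tie1 and Cldn5), and 0 were called with 1,2-dibromoethane. Their sum was 17622 to 21122 with coumarin and 16705 to 20878 with 1,2-dibromoethane, against 20182 to 23333 in controls. In corn oil against feed controls of set 2 Tie1 was 0.52 ± 0.11 and Cdh5 0.39 ± 0.11, and Cldn5 was not called. Of 5 mesothelial markers 2 fell with 1,2-dibromoethane. Upk3b fell by 1.73 ± 0.51 and Msln fell by 1.35 ± 0.40, with list sums of 217 to 2335, against 1073 to 3091. No defining marker of these 4 lists lay below the filter.

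Markers of other cell types moved in the same groups. Of 6 ciliated cell markers 3 rose with 1,2-dibromoethane (median 0.50) and 3 with coumarin (median 0.61), with sums of 4653 to 6818 with 1,2-dibromoethane and 5334 to 6443 with coumarin, against 3160 to 4964 in controls. Rsph1, Dynlrb2 and Cfap126 rose with both chemicals, which share these controls. In corn oil against feed controls of set 2 these genes were -0.45 ± 0.13, -0.47 ± 0.14 and -0.41 ± 0.13. The part of the shared controls was not tested. Of 3 cartilage markers above the filter (7 on the list) 1 rose with coumarin, Chad, by 1.57 ± 0.22 (median of the list 0.37). With 1,2-dibromoethane Siglecf of alveolar macrophages fell by 1.07 ± 0.21, and the alveolar type II genes Slc34a2 and Sftpa1 fell by 0.26 ± 0.07 and 0.21 ± 0.06. With N-methylolacrylamide 2 of 12 fibroblast markers rose, Lum by 1.19 ± 0.36 and Itga8 by 0.96 ± 0.15 (median of the list 0.04). Of 10 endothelial markers 2 rose (Emcn, 0.81 ± 0.23, and Tek, 0.49 ± 0.15), but 7 changes were below 0 (median -0.18). Of 10 smooth muscle markers 1 rose (Synpo2, 0.76 ± 0.25), but 7 changes were below 0 (median -0.24). The median over all genes was -0.10 for this chemical. In water controls against feed controls of set 2, Lum was -1.09 ± 0.36, Itga8 -0.89 ± 0.15 and Emcn -0.69 ± 0.23. Synpo2 was -0.64 ± 0.25 there, and Tek was not called. The part of the water controls in these marker changes was not tested. The sums with N-methylolacrylamide were 25037 to 28076 for fibroblast markers, against 23077 to 26453 in water controls, and 6298 to 11167 for smooth muscle markers, against 8928 to 11312. The part of these cell types in the falls of Eln, Loxl1 and Fbln5 was not tested.

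Within groups, where chemical and vehicle do not differ, Eln varied with Loxl1. The correlation of deviations from group means over 70 arrays was r = 0.62 (rho = 0.62, permutation adjusted p = 0.00014 for both over 28 pairs), 0.57 without the 2 animals farthest out on Eln. It was 0.67 in the 52 arrays of set 2 and 0.15 in the 18 of set 1. Loxl1 ranked 7 of 12734 genes by likeness to Eln, while Fbln1 (r = 0.42) ranked 366 and Lox (r = 0.28) 1862. Ltbp4 (0.24) ranked 2368, Fbln5 (0.24) 2434, Emilin1 (0.16) 3812 and Mfap4 (0.12) 4662. The 10 genes most like Eln by Pearson r over the 70 arrays were Dapk1 (0.74), Trim3 (0.72), Rhou (0.68), Arntl (0.67), Tfcp2l1 (0.65), Dtx4 (0.63), Loxl1 (0.62), Npc1 (0.62), Fam189a2 (0.60) and Hs6st1 (0.60).

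Arntl encodes Bmal1, the activator of the circadian clock, and it moved with Eln across animals. Its r with Eln was 0.67 (rho = 0.53, permutation p = 1e-05 for r, the smallest the 100000 permutations can give, and 0.00056 adjusted over 56 relations). It was 0.62 without the 2 animals farthest out, 0.56 in set 1 and 0.69 in set 2. Dbp, a clock output gene that peaks when Arntl is low, had r = -0.40 with Eln (adjusted p = 0.0155), -0.44 in set 1 and -0.40 in set 2. Loxl1 also varied with Arntl (r = 0.48, adjusted p = 0.00103), whereas Lox (-0.04), Mfap4 (-0.02) and Fbln1 (0.07) did not pass. The labels state no time of day for tissue collection.

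**Figure D4:**
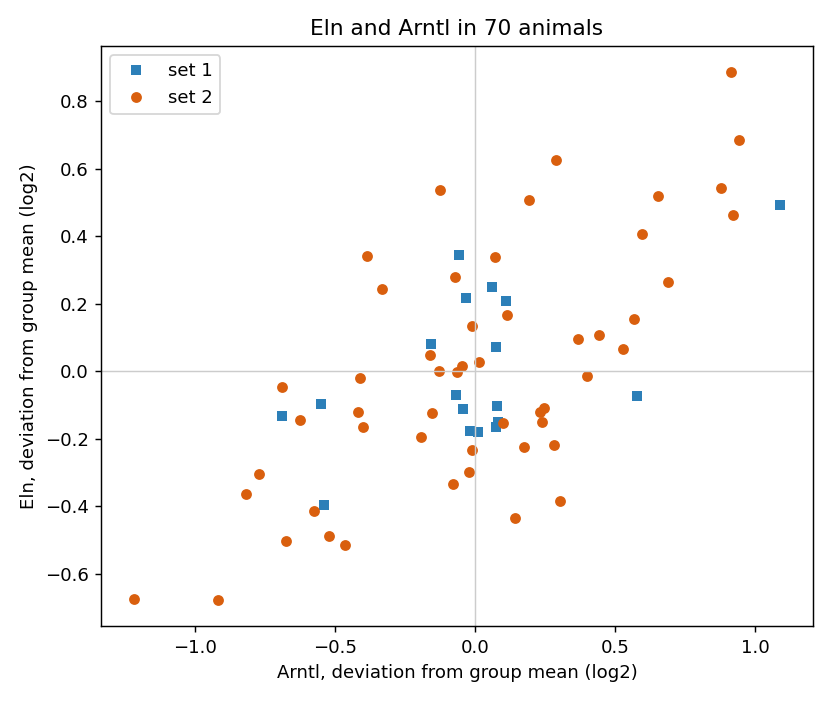
Deviation of Eln from its group mean (vertical, log2) against that of Arntl (horizontal, log2) in 70 animals, with set 1 as squares and set 2 as circles. Animals high in Arntl for their group were high in Eln, with r = 0.67.

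Arntl was also called lower with 2 of the 3 chemicals for which Eln was called. It measured 7.17, 6.53, 7.91 and 6.37 with 1,2-dibromoethane and 7.02, 6.52, 6.71 and 7.92 with coumarin, against 7.56 to 8.44 in the corn oil controls. It fell by 1.14 ± 0.32 with 1,2-dibromoethane (adjusted p = 0.0294) and by 1.09 ± 0.32 with coumarin (0.0344), and Dbp rose with coumarin by 2.38 ± 0.61 (0.0114). With N-methylolacrylamide Arntl was not called (-0.43 ± 0.37, adjusted p = 0.39). With malathion Arntl fell by 1.39 ± 0.37 (0.0301), and Eln measured -0.29 ± 0.26. With 2-chloromethylpyridine Arntl was -1.13 ± 0.37 (0.316) beside Eln at -0.71 ± 0.26. With 2,3-benzofuran Arntl was 1.06 ± 0.43 (0.145) beside Eln at -0.07 ± 0.30. In corn oil controls, set 1 minus set 2, Arntl was -1.01 ± 0.36 (0.0135) and Eln -1.07 ± 0.25, with no chemical given.

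With the level of Arntl as a covariate, a fit chosen after the correlation was seen, 1 of the 6 calls was made. Eln with 1,2-dibromoethane was then -0.82 ± 0.19 (adjusted p = 0.015). Eln with coumarin was -0.51 ± 0.19 (0.164) and with N-methylolacrylamide -0.50 ± 0.20 (0.0671). Loxl1 was -0.34 ± 0.15 with 1,2-dibromoethane (0.268) and -0.29 ± 0.15 with coumarin (0.405), and Fbln5 with 1,2-dibromoethane was -0.31 (0.135). Since Arntl itself fell with 1,2-dibromoethane and coumarin, its part and theirs cannot be told apart.

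Correlations between members were counted, but no share over pairs of all genes was computed beside the counts. Of 28 pairs 22 had r above 0, 12 were called positive and 2 negative. The strongest was Ltbp4 with Fbln1 (r = 0.76, rho = 0.81, adjusted p = 0.00014; 0.83 in set 1 and 0.79 in set 2), followed by Eln with Loxl1 and Loxl1 with Fbln1 (0.56). Both negative pairs held Lox, with Emilin1 (-0.48, adjusted p = 0.00591) and with Fbln5 (-0.37, 0.0319), and both had r above 0 in set 1 alone (0.22 and 0.18).

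**Figure D5:**
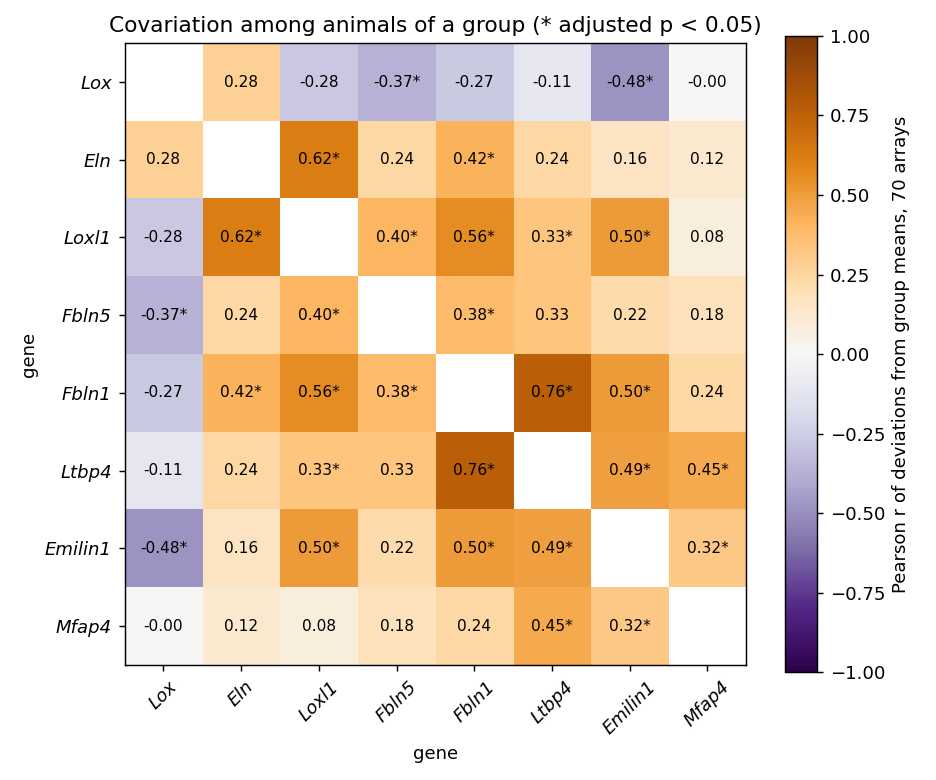
Pearson r between elastic fibre genes over deviations from group means in 70 arrays, with adjusted p under 0.05 starred. Ltbp4 with Fbln1 (0.76) and Eln with Loxl1 (0.62) are highest, and 5 of the 7 values of Lox with other members are negative beside 1 at -0.00.

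Other measures also moved with some members. Ltbp4 and Fbln1 were lower where the 3' minus 5' value was higher (r = -0.53 and -0.46, adjusted p = 0.00504 and 0.00056). Fbln1 followed the means of the fibroblast (0.55) and smooth muscle markers (0.56), and Loxl1 that of the smooth muscle markers (0.49). Lox was higher and Emilin1 lower along the first principal component of all other genes, turned so that Lox is positive, which held 27.9% of the variance within groups (r = 0.55 and -0.54). The part of RNA integrity and cell content in these correlations was not tested.

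More members were called between some control groups than for any chemical. Water gavage against feed controls of set 2 gave 5 calls of 8, where 37% of all genes were called, 16.4% higher and 20.7% lower. Ltbp4 measured 10.79, 10.94, 10.66 and 10.20 in water controls, against 9.42, 9.98, 9.43 and 9.75 in feed controls, with no overlap and a rise of 1.00 ± 0.21 (adjusted p = 0.000274). Emilin1 rose by 0.60 ± 0.14, Fbln1 by 0.68 ± 0.21 and Loxl1 by 0.53 ± 0.17. Lox measured 7.31, 7.82, 7.67 and 9.52 in water controls, against 9.21, 8.95, 9.48 and 9.57 in feed controls, a fall of 1.23 ± 0.38 (adjusted p = 0.00972). The second Lox probe set gave -0.69 ± 0.34 (adjusted p = 0.114) and the mean of its probe sets -0.68 ± 0.25 (0.0288). Animal 2-129, at 9.52, lay within the feed range and the other 3 below it, and without 2-121 the Lox value was -0.97 (adjusted p = 0.0647) and that of Loxl1 0.40 (0.0927), and without feed control 2-42 that of Fbln1 was 0.56 (0.0672).

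Corn oil against feed controls of set 2 gave 1 call, Ltbp4, at 10.15 to 10.76 (median 10.39) in corn oil controls against the feed values above, a rise of 0.76 ± 0.18 (adjusted p = 0.00952) where 4.41% of genes were called and 2.08% called higher. Without feed control 2-42 it was 0.69 (0.0568), and Ltbp4 was not called with the RNA amount as a block. The lowest feed controls, 2-42 and 2-44, were those with the smaller volume. In set 1 the same contrast called 0% of genes by limma, with 207 at an unadjusted p under 0.05, and Ltbp4 was 0.06 ± 0.24. The difference between the sets was not called for any member or any gene (0%, 673 at an unadjusted p under 0.05), and for Ltbp4 it was -0.70 ± 0.30 (adjusted p = 0.848). Corn oil against water controls called 26% of genes, 11.8% lower, and 1 member, Emilin1 (-0.41 ± 0.12, adjusted p = 0.00871). That call was lost without water control 2-121 (-0.33, 0.0684) or 2-124 (-0.37, 0.0603), and without 2-129 Lox was 1.10 (0.011) and Fbln1 -0.61 (0.017).

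Between set 1 and set 2 controls a large share of all genes was called, and the count of members called lay near the background. Mfap4 measured 11.03, 11.02 and 11.04 in corn oil controls of set 1, against 11.71 to 12.15 (median 12.03) in those of set 2, and 10.80, 10.78 and 10.72 in feed controls of set 1, against 11.71, 11.84, 12.01 and 12.02 in those of set 2. The sets did not overlap for either vehicle. The difference was -0.97 ± 0.15 in corn oil controls (adjusted p = 3.98e-07) and -1.13 ± 0.17 in feed controls (1.49e-06). The difference was -1.07 ± 0.25 for Eln and -0.74 ± 0.17 for Loxl1 in corn oil controls, and -0.34 ± 0.28 for Eln and -0.22 ± 0.19 for Loxl1 in feed controls. The second Eln probe set gave -0.47 ± 0.20 in corn oil controls (adjusted p = 0.048) and the other sign, 0.24 ± 0.23, in feed controls. The second probe sets of Fbln5 (-0.20 in corn oil and -0.23 in feed controls) and, in feed controls, of Emilin1 (-0.02) did not give the calls. That of Fbln5 is the dim one, with a mean below the filter value. In all 5 members were called for corn oil, where 60.5% of all genes were called and 40% called lower, and 3 for feed, where 46.9% were called and 33.1% called lower. The part of whatever the sets stand for was not tested.

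No member was called between the labels' classes of lung tumour outcome. The mean Eln change over chemicals was -0.50 ± 0.53 in the 7 positive and -0.20 ± 0.29 in the 6 negative chemicals (SD), a difference of -0.29 ± 0.21 (two-sided exact permutation p = 0.262 over 1716 splits, limma adjusted p = 0.818). The smallest exact permutation p of the 8 genes was that of Ltbp4, 0.0402, for a difference of -0.37 ± 0.14, with a limma adjusted p of 0.715. No gene was called (0%, 865 at an unadjusted p under 0.05). All 4 corn oil chemicals are positive, and among feed chemicals alone the Eln difference was 0.04 and the Ltbp4 difference -0.05.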

How the data were processed

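The deposited table holds log2 signals per probe set, a scale taken from its range (2.47 to 14.5), and how the authors summarised and normalised it is not stated in the labels. Probe sets were named from the platform annotation, updated through the RefSeq gene table of GRCm38.p6. Of 45101 probe sets, 34945 had 1 symbol, 932 several, 9160 none, and 64 were controls. A single limma 3.58.1 model (R 4.3.3) gave a mean for each of 18 groups over all arrays, with Benjamini-Hochberg adjustment within a contrast over 12735 genes above the 30th percentile. Correlations used deviations from group means, permuted within groups 100000 times (numpy 2.4.6). Figures were drawn with matplotlib 3.10.9, and the code was tested on simulated data.

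Named genes were all members, the 10 genes most like Eln, and up to 4 called genes per context list and comparison. Members and lists were chosen with earlier results of these data known. Markers and Dbp fall outside that rule. Dbp and the fits with Arntl, the principal component or without 2 arrays were chosen after values were seen.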

Additional observations from a re-analysis of the deposited data

Results flagged for a closer look

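Of 96 combinations of a gene and a group tested (8 genes in 12 groups of 4 or 8 animals), 2 held an animal far from the rest by Dixon's criterion, and chance gives about 1 in 20. Emilin1 was 8.63 in animal 2-54 given 1,2-dibromoethane, against 8.41 to 8.43 in the other mice of that group. Mfap4 was 11.71 in animal 2-97 of the set 2 corn oil controls, against 11.94 to 12.15 in the other controls.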

How the results depend on the processing

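Of 6 member calls among the chemicals, leaving out each animal gave 4 to 8. By chemical it gave 1 to 3 for 1,2-dibromoethane, 1 to 3 for coumarin, 0 to 2 for N-methylolacrylamide and 0 to 1 for 2,3-benzofuran. Among controls it gave 0 to 3 for corn oil against feed in set 2, 0 to 3 for corn oil against water, 3 to 6 for water against feed, 2 to 3 for set 1 against set 2 in feed and 5 to 5 in corn oil. Counts over all genes were not made for these fits.

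The total was 18 with array weights, 11 with both sets' controls pooled and 1 with the second probe set of genes that have one. It was 1 with Arntl as a covariate and 0 with only the groups compared in the fit. Ltbp4 and Mfap4 have no second probe set and kept their only one, and that of Fbln5 is dim. Array weights gave 6 for 2,2-bis(bromomethyl)-1,3-propanediol, 4 for coumarin, 3 for N-methylolacrylamide and 1 each for 2-chloromethylpyridine and diazinon. That fit called 6212 of 12735 genes for N-methylolacrylamide and 1120 for coumarin, against 2777 and 596 in the main fit, so it raised calls of genes in general. For 2,2-bis(bromomethyl)-1,3-propanediol, 2-chloromethylpyridine and diazinon no count over all genes was made with array weights. Pooled controls gave 5 for 2,3-benzofuran, 2 each for 2,2-bis(bromomethyl)-1,3-propanediol and malathion, 1 each for 1,5-naphthalenediamine and 1,2-dibromoethane, and 0 for coumarin and N-methylolacrylamide. Pooling joins controls of both sets, between which 60.5% of genes were called in corn oil and 46.9% in feed controls. It called 3362 genes for 2,3-benzofuran, against 640 in the main fit. Mfap4 with 2,3-benzofuran was -0.90 with pooled and -0.20 with matched controls. For corn oil and feed chemicals, set and chemical cannot be told apart in the pooled counts. For 1,2-dibromoethane and coumarin the second probe set gave 1 and 0, only the groups compared 0 and 0, and the Arntl covariate 1 and 0. For N-methylolacrylamide the count was 0 with no filter, the mean of probe sets, the second probe set, a repeat quantile normalization, only the groups compared or the Arntl covariate, and 2 with the principal component as covariate. The fit with the principal component called 4512 of 12735 genes for this chemical.

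Corn oil against feed in set 2 gave 2 with the second probe set, quantile normalization, the Arntl covariate or without the 2 arrays of high 3' minus 5' value, 3 with the principal component, 4 with array weights, and 0 with only the groups compared or the RNA amount as a block. Corn oil against water gave 2 with the mean of probe sets, quantile normalization, array weights, the principal component or without those 2 arrays, and 0 with only the groups compared. Set 1 against set 2 in feed gave 1 with the second probe set, and the difference between sets 2 with array weights. Counts over all genes were not made for these control contrasts under the other settings. Of the 14 called correlations 3 changed sign in set 1 alone, Fbln5 with Lox (0.18), Fbln5 with Loxl1 (-0.09) and Lox with Emilin1 (0.22). The cause of these changes was not tested. Only the groups compared left 12 genes called for 1,2-dibromoethane and 143 for coumarin, from fewer arrays. No paired analysis was possible because the groups share no replicate numbers.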
